A study of Drosophila melanogaster with 3 samples.

Results

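The 7 genes described here specify the mesoderm of the Drosophila melanogaster embryo. They are the transcription factor genes twi, tin, zfh1 and Mef2, the fibroblast growth factor (FGF) receptor gene htl and the FGF ligand genes ths and pyr. They were taken by symbol from 13968 protein-coding genes, and all 7 symbols were found in the annotation. Every deposited peak whose summit lay in a gene model or within 10 kb of it was kept, which gave 23 of the 5049 peaks of the authors' irreproducible discovery rate (IDR) list and 111 of the 30000 peaks of the pooled list. On dm6, twi lies on 2R from 22985374 to 23048325, Mef2 on 2R from 9913496 to 9958858, pyr on 2R from 11712263 to 11726345 and ths on 2R from 11756817 to 11814424. The other members lie on 3R, with tin from 21378977 to 21381970, zfh1 from 30765926 to 30789202 and htl from 18045216 to 18052984. Mef2 and htl are transcribed from the minus strand, and the other 5 genes from the plus strand.

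The series mapped the binding of Mabi, which has been linked to the death of cells in the fly embryo, by chromatin immunoprecipitation and sequencing. Whole embryos of both sexes together, 0 to 4 h old, came from strain CG15479-GFP, a stable transgenic line whose Mabi ends in green fluorescent protein (GFP). Chromatin was precipitated with an antibody against GFP, per the sample descriptions, although the antibody field names CG15479, the other name of Mabi. The labels describe an insertion targeting Mabi, and the same line gave all 3 biological replicates, which formed 1 group. There was no untagged or untreated group among the samples, so no groups were compared. The sources used here do not give the promoter or the copy number of the tagged gene. Peak signals are averages over all cells and stages of these embryos, so that binding in few cells and weak binding in many cannot be told apart.

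In the fly, mesoderm forms from the ventral cells of the blastoderm. The basic helix-loop-helix activator Twist, whose gene twi is switched on there by the Dorsal protein gradient, starts the programme and activates many of its later genes. Heartless, the receptor encoded by htl, lets the invaginated cells spread over the ectoderm towards the ligands Thisbe and Pyramus, which the ectoderm makes. Tinman, an NK-class homeodomain protein, specifies the dorsal mesoderm and heart, Mef2 is a MADS-box factor of muscle differentiation, and Zfh1 is a zinc finger and homeodomain repressor of several mesodermal tissues.

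The DNA around the strongest IDR summits at tin and zfh1 is printed here, which is not always the whole of a peak's interval. The windows reach 100 bp to either side of the summit, are given on the plus strand of the RefSeq copy of genome Release 6 (dm6), and hold no annotated untranslated base. Capitals mark every match, on either strand, of the motifs searched. These were the E-box CANNTG, with its Twist-type forms CACATG and CATATG, the Snail-type form CAGGTG and the Tinman-type form CAAGTG, further the Zelda-type CAGGTA, the GAGA-type GAGAG, the Dorsal-type GGGAAA, the Dref-type TATCGATA and the Mef2 consensus. The window at tin is chr3R:21378707-21378907, upstream of its start site, and has CATATG at the summit. The other tin window, chr3R:21376472-21376672, lies in an intron of the neighbouring gene mod(mdg4).
tin summit 2: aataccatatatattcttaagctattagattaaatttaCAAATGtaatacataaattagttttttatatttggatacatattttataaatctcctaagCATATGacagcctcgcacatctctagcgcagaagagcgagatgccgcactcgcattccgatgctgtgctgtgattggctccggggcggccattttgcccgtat
tin summit 1: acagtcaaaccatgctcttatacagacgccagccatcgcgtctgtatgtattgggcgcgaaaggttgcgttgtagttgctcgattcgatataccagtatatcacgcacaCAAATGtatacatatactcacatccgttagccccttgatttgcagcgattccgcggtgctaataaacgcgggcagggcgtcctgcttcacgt

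The 3 strongest windows at zfh1 lie in introns of the gene, at chr3R:30781757-30781957, chr3R:30775811-30776011 and chr3R:30780572-30780772. The strongest window has no E-box and carries overlapping GAGAG matches near its end. It covers only part of its interval, in which summit 8 lies 201 bp away. The window of summit 8, not printed, has 4 E-boxes, 1 of them CACATG and 2 CAGGTG. In replicates 1 to 3 the summits matched to summit 7 lay at 99, -92 and -105 bp from it, near or past the ends of the printed window. The next printed window has 4 matches of CANNTG, of which CAAGTG and CACTTG, its reverse complement, are Tinman-type. The last has CACCTG, the reverse complement of the Snail-type CAGGTG, and a GAGAG 21 bp before the summit.
zfh1 summit 7: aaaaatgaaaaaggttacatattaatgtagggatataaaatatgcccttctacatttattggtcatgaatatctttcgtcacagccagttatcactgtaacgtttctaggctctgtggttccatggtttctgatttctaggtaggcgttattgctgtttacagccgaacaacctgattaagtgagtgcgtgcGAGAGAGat
zfh1 summit 5: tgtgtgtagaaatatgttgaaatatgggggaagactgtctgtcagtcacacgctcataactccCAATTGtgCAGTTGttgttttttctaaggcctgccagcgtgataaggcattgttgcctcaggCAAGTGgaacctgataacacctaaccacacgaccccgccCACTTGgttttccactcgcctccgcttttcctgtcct
zfh1 summit 6: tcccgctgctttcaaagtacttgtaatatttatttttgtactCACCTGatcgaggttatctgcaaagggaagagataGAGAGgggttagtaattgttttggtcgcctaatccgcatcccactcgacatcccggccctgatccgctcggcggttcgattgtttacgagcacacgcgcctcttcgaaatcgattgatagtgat

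Each replicate and the pooled reads gave a list of 30000 peaks, with a signal value for each peak whose scale is not stated. Signals are therefore given within a list only, as the authors' value, its rank or its ratio to the list's median. Replicate ratios are given with their mean and SD over the 3 lists. All replicate lists were made against 1 shared control, so their agreement can in part be shared with it. The 5049 IDR peaks were the same as the 5049 strongest pooled peaks, had signals from 291 to 8663 and a median of 473. The read depth behind the lists is unknown here.

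Of the 7 genes, 5 had at least 1 IDR summit in the window, and 2 had none. The summits were unevenly spread. The window of zfh1 held 9, that of Mef2 8, that of tin 3, that of pyr 2 and that of ths 1, while those of twi and htl held 0. Over all protein-coding genes 53.9% had an IDR summit in such a window, which lies inside the exact binomial 95% interval of the members' share (71.4%, 29.0 to 96.3%), so this count by itself is no result about the members. Only 0.888% of protein-coding genes had at least as many summits as zfh1, 1.35% at least as many as Mef2 and 19.1% at least as many as tin. Window length differs between genes: that of zfh1 spans 43277 bp and that of Mef2 65363 bp, against a median of 22164.5 bp over all protein-coding genes, whereas that of tin, at 22994 bp, is close to it. Per 100 kb of window, zfh1 had 20.8 IDR summits, tin 13.0, Mef2 12.2, pyr 5.87 and ths 1.29, beside 3.67 over the chromosome arms. The windows of twi (82952 bp) and ths (77608 bp) were the longest of the 7 and held 0 and 1.

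**Figure D1:**
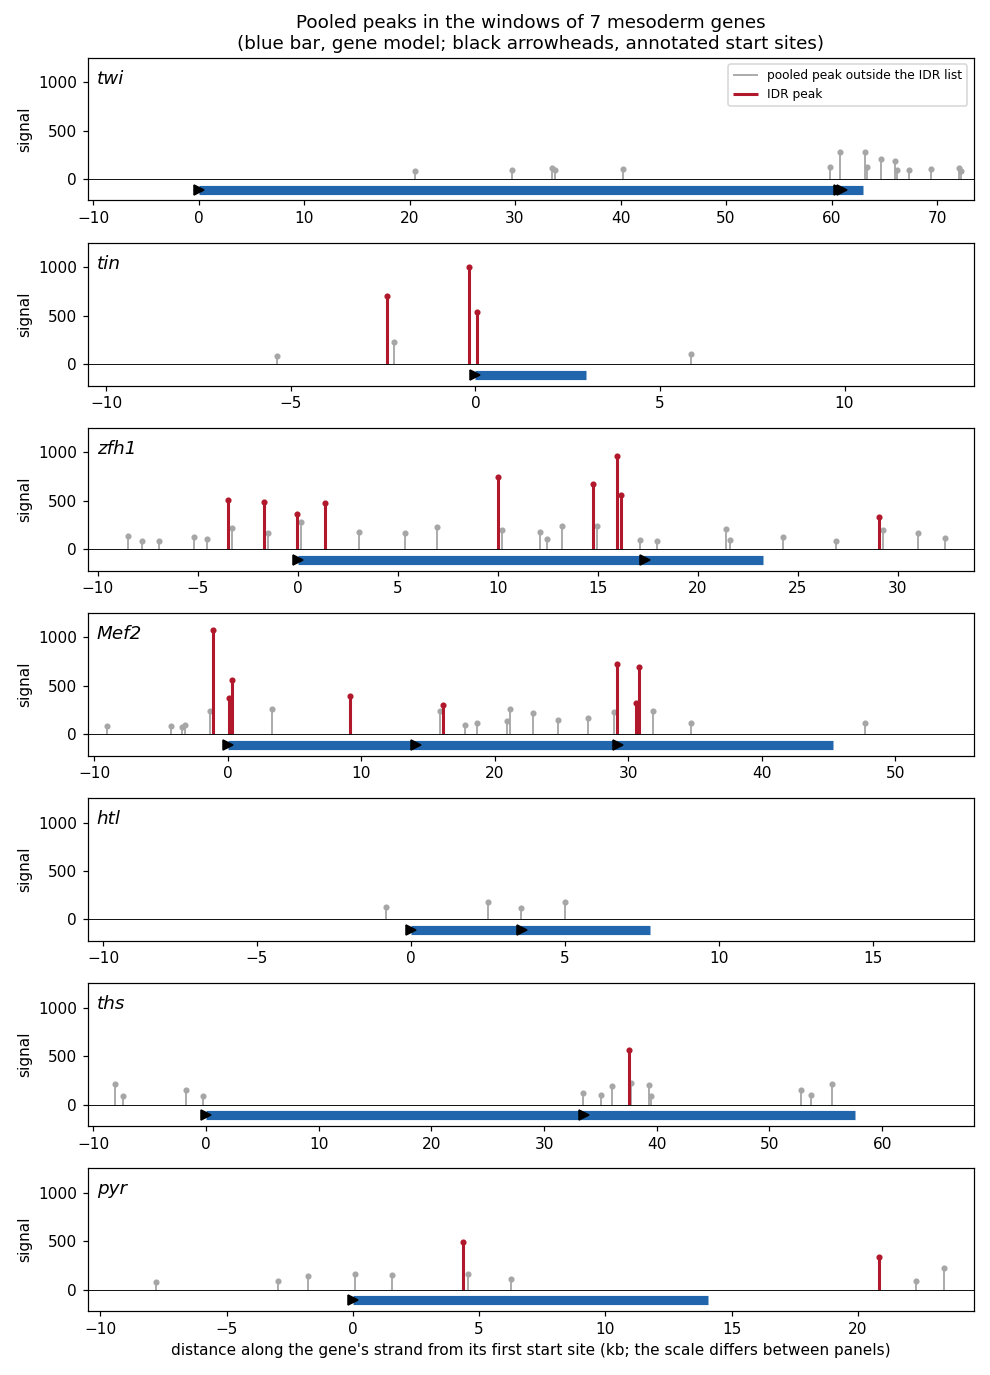
Signal of every pooled peak in the windows of the 7 genes (vertical axis, the authors' signal) against its distance from the gene's first start site along the strand (horizontal axis, kb), with IDR peaks in red and lower-ranked pooled peaks in grey. Red peaks lie at and upstream of the tin start, and at starts and in introns of zfh1 and Mef2, while ths has 1, pyr has 2, and twi and htl have grey peaks alone.

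The 4 transcription factor genes together had 20 IDR summits in 214586 bp of window, and the receptor and ligand genes together had 3 in 139460 bp. That is 9.32 per 100 kb beside 2.15. The roles were less unequal in the pooled list, which includes the IDR peaks. Pooled peaks came to 38.2 per 100 kb at the factors and 20.8 at the receptor and ligands, beside 21.8 over the chromosome arms. The difference between these roles was not tested, and twi among the factors had no IDR summit.

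At twi, no IDR peak lay in the window, and the IDR summit nearest to any of its start sites was 26274 bp away. Its annotated gene model is long because 1 transcript, twi-RC, starts far upstream of twi-RA and twi-RB. The window held 16 pooled peaks, all below the IDR list. The strongest, just past the 3′ end (23048296 to 23048791), had a signal of 278 and ranked 5369, close under the last IDR peak at 291. The next, with a signal of 275 and rank 5452, lay 110 bp downstream of the twi-RA start site. Within 1000 bp of the twi-RA and twi-RB starts, the strongest peak stood at 2.57 times the list's median in replicate 1, 1.52 times in replicate 2 and 2.32 times in replicate 3 (2.14 ± 0.548, SD, n = 3). It ranked 3412, 7583 and 4949, so that it was among the 5049 strongest in replicates 1 and 3 but not in replicate 2. Each replicate had exactly 1 peak of the twi window among its 5049 strongest, but that of replicate 2 (rank 4346) lay 4122 bp upstream of the start of Fatp2, a fatty acid transport protein gene. No list had a peak within 1000 bp of the twi-RC start.

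At tin, both the start site and a site 2405 bp upstream carried IDR peaks. The strongest, summit 2, spanned 21378484 to 21379258 on 3R, had a signal of 1004 and ranked 648 of 5049, with its summit 170 bp upstream of the only annotated tin start. It stood at 5.22 times the list's median in replicate 1, 6.81 times in replicate 2 and 7.72 times in replicate 3 (6.58 ± 1.27, SD, n = 3), with ranks of 980, 580 and 653. Replicate 1 was the lowest of the 3. Summit 3 of the same interval lay 33 bp downstream of the start, with a signal of 539.7 and ratios of 3.45, 3.17 and 5.38. Summit 1 (705) lay in mod(mdg4), a chromatin protein gene that is transcribed away from tin, 829 bp downstream of its nearest start site. Its ratios were 4.10, 5.00 and 5.01, the closest agreement among the 3 tin summits. The window also holds bap, the homeobox gene of the visceral mesoderm that follows tin, where no IDR summit lay within 1000 bp of the start.

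The zfh1 window held 9 IDR summits, and 5 lay in the gene model. Summits 1 and 2 (507 and 488) lay 3511 and 1695 bp upstream of the start shared by zfh1-RB and zfh1-RE, summit 3 (369) 35 bp upstream of it, and summit 4 (474) 1368 bp downstream. The other intronic summits lay before the zfh1-RA start. Summit 7 was the strongest, with a signal of 960.0, rank 719 and an interval from 30781220 to 30782348 on 3R. It lay 1401 bp upstream of the zfh1-RA start, in an intron that also holds the antisense RNA gene asRNA:CR45189. Summit 7 stood at 6.23, 6.14 and 7.52 times the median in replicates 1 to 3 (6.63 ± 0.773, SD, n = 3), and its 3 ranks lay between 666 and 726. Summit 8 in the same interval had a signal of 565, summit 5 had 749 (5.05, 4.26 and 5.86 times the median) and summit 6 had 671 (4.79, 4.99 and 3.74 times). Summit 9 (334) lay in an intron of wts, the Hippo pathway kinase gene next to zfh1, 11652 bp downstream of the nearest wts start. At the zfh1-RA start itself no IDR summit lay within 1000 bp, and the strongest pooled peak there ranked 23437.

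The promoter peak of zfh1 was the least reproducible of its summits. Summit 3 had an interval of 138 bp, and it was matched by none of the 5049 strongest peaks of any replicate. In the complete lists replicate 1 alone matched it, at 1.89 times the median and rank 5508. Replicates 2 and 3 had their strongest peak near this start 131 and 141 bp downstream of it, at 2.28 and 3.41 times the median. These peaks ranked 4167 and 2856, among the 5049 strongest, but did not overlap summit 3 by enough to match it. When a replicate was left out and a summit was kept only if both others matched it among their 5049 strongest, zfh1 had no promoter summit left, while tin and Mef2 kept one.

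Mef2 had IDR peaks at 2 of its 3 start sites and in its introns. The start shared by 8 transcripts carried summit 3, 95 bp upstream, with a signal of 723 and rank 1231. It stood at 4.75 times the median in replicate 1, 4.58 times in replicate 2 and 5.43 times in replicate 3 (4.92 ± 0.447, SD, n = 3). Summit 1 (695) lay 1538 bp downstream of that start in an intron, at 4.04, 4.80 and 4.53 times the median, and summit 2 (326) lay beside it. The far upstream start of Mef2-RF and Mef2-RH carried summit 6 (565) 282 bp downstream and summit 7 (372) 83 bp downstream. No list had a peak within 1000 bp of the Mef2-RG start. The intronic summit 5 had a signal of 392. The intronic summit 4 was the weakest of the 23, with a signal of 298, and stood at 0.867 times the median in replicate 1 (rank 18825), 2.38 times in replicate 2 and 1.77 times in replicate 3.

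The strongest peak of the Mef2 window lay nearer to starts of other genes than to those of Mef2. Summit 8 (9959711 to 9960373 on 2R) had a signal of 1076 and rank 562, the highest of the 23. It lay 1106 bp upstream of the far Mef2 start, but inside Pal1, a peptide amidation enzyme gene, and 114 bp upstream of a Pal1 start. In replicates 1 and 2 the peak lay nearest to a start of another gene, Pdrg1, 163 and 145 bp upstream of it. In replicate 3 it lay 80 bp upstream of the Pal1 start. It stood at 5.70 times the median in replicate 1, 7.45 times in replicate 2 and 8.34 times in replicate 3 (7.16 ± 1.34, SD, n = 3). Whether it acts on any of these genes was not tested.

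The receptor gene htl had no IDR peak, and the nearest IDR summit to its start sites was 23044 bp away. Its window held 4 pooled peaks. The strongest, in an intron of htl (18050243 to 18050738 on 3R), had a signal of 180.3 and ranked 9619. The strongest peak of the window had ranks of 9013, 5120 and 10490 in replicates 1 to 3, at 1.37, 1.98 and 1.30 times the median. These were different places: a coding exon, the same intron as in the pool, and the start of htl-RA and htl-RC. None of the 3 lists placed an htl peak among its 5049 strongest. Near that start, replicate 2 had no listed peak, and replicates 1 and 3 had 1.34 and 1.30 times the median.

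The ligand genes ths and pyr each had an intronic IDR peak and none at a start site. The ths summit (11794265 to 11794560 on 2R) had a signal of 563 and rank 1916, and lay 3993 bp downstream of the ths-RA start. It stood at 4.28, 3.17 and 4.51 times the median in replicates 1 to 3 (3.99 ± 0.714, SD, n = 3), and all 3 replicates had their strongest peak of the window there. At pyr, summit 1 (11716374 to 11716869) had a signal of 493 and rank 2374, 4359 bp downstream of the pyr start. It stood at 3.65, 3.39 and 2.64 times the median (3.23 ± 0.521, SD, n = 3). Summit 2 of pyr (340.1) lay between genes, 20828 bp from the start, and was the strongest of the window in replicate 3 (3.59 times the median) but not in replicates 1 and 2 (2.50 and 1.58). The pyr start had weak peaks in all 3 replicates, at 0.836, 1.18 and 1.38 times the median. At the ths-RA start, replicate 1 had none and replicates 2 and 3 had 1.07 and 1.17.

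**Figure D2:**
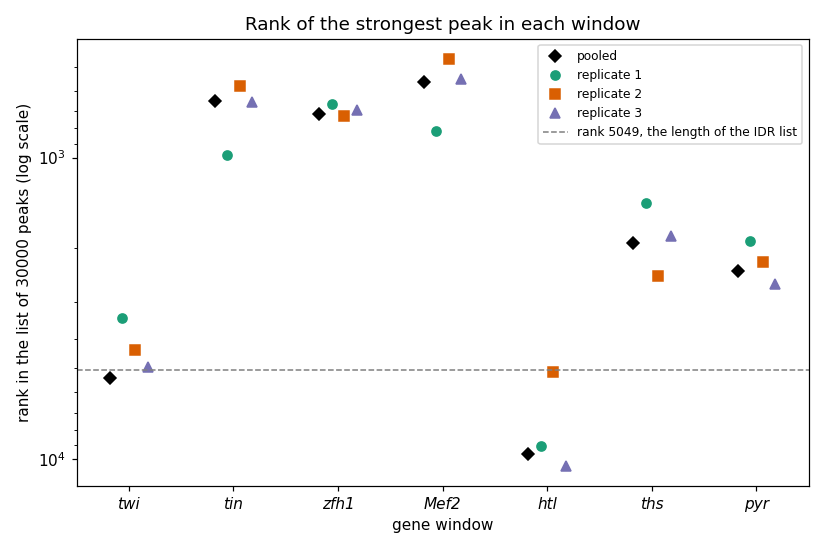
Rank (vertical axis, log scale, strongest at the top) of the strongest peak in the window of each gene (horizontal axis) in the pooled list and the 3 replicate lists of 30000 peaks, with a dashed line at rank 5049. The windows of tin, zfh1 and Mef2 rank between 472 and 980 in the 4 lists, ths and pyr between 1415 and 2622, twi between 3412 and 5369, and htl between 5120 and 10490.

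The order of the windows by their strongest peak was the same in broad groups in all lists. Over the 3 replicates the strongest peak stood at 7.16 ± 1.34 times the median at Mef2, 6.63 ± 0.773 at zfh1 and 6.58 ± 1.27 at tin (SD, n = 3), and these neighbours did not differ beyond their spread. At ths it stood at 3.99 ± 0.714 and at pyr at 3.54 ± 0.137, which overlapped, at twi at 2.37 ± 0.182 and at htl at 1.55 ± 0.372. The lowest replicate value at tin, zfh1 and Mef2, 5.22, lay above the highest at ths and pyr, 4.51. The lowest value at ths and pyr, 3.17, lay above the highest at twi, 2.57, and the lowest at twi, 2.22, above the highest at htl, 1.98. These values take the strongest peak wherever it lies in the window. That of Mef2 is the peak near the starts of Pal1 and Pdrg1, and those of twi, htl and pyr lie at different places in different replicates. At pyr it was summit 1 in replicates 1 and 2 and summit 2 in replicate 3, and summit 1 alone stood at 3.23 ± 0.521 (SD, n = 3). At the twi start itself replicate 2 stood at 1.52, below the highest value at htl.

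A promoter summit, within 1000 bp of any annotated start, was present in the IDR list at tin, zfh1 and Mef2 and at none of the other 4 genes. Over all protein-coding genes the share was 18.4%, inside the exact binomial 95% interval of 3 of 7 (42.9%, 9.90 to 81.6%). All 7 genes had a promoter summit in the complete pooled list, where 56.6% of protein-coding genes had one. In the gene model itself, 5 of 7 had an IDR summit (71.4%, 29.0 to 96.3%), beside 13.1% of protein-coding genes. Gene length was not matched in this comparison.

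**Figure D3:**
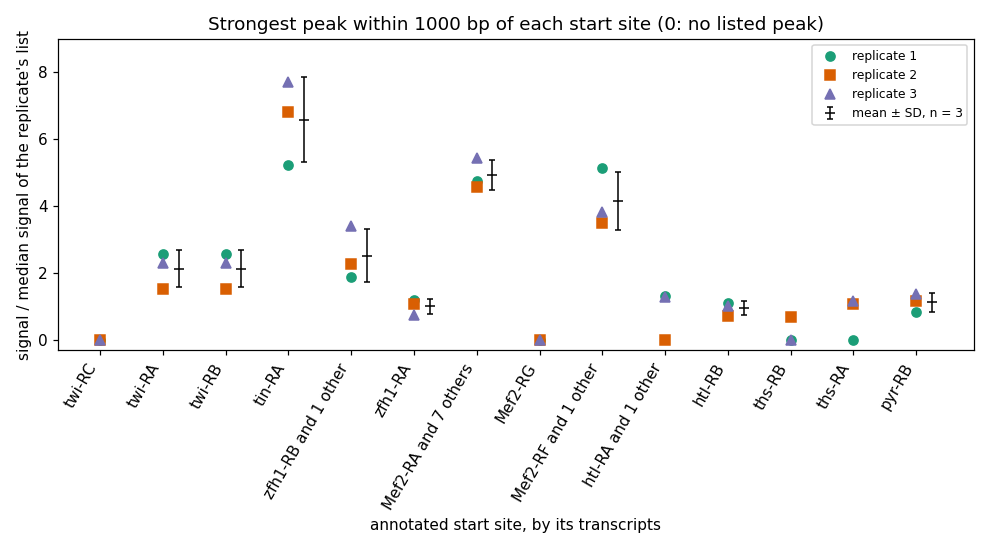
Ratio of the strongest peak within 1000 bp of each annotated start site (horizontal axis, by transcript) to the median signal of the replicate's list (vertical axis), with the mean and SD where all 3 replicates had a peak and 0 where a list had none. The tin start reaches 5.22 to 7.72 and the Mef2 start of 8 transcripts 4.58 to 5.43, while the starts of htl, ths and pyr lie at 1.38 or below and the starts of twi-RC and Mef2-RG have no peak.

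Of the 23 IDR summits, 17 were matched by one of the 5049 strongest peaks of all 3 replicates, by an overlap of at least 50% of either peak. That is 73.9% (exact binomial 95% interval 51.6 to 89.8%), close to the 71.2% of all IDR peaks. A further 4 were matched in 2 replicates, 1 in a single replicate and 1, the zfh1 promoter summit, in none. Each replicate matched 20 of the 23. Against the complete lists, all but the zfh1 promoter summit were matched in all 3. In the complete lists, the nearest overlapping summit lay a median of 57 bp from the IDR summit in replicate 1, 33 bp in replicate 2 and 27.5 bp in replicate 3. The ratios of a summit are those of the overlapping peak with the nearest summit, whereas the count of 17 takes any overlapping peak among the 5049 strongest. These differed for summit 8 of zfh1, with ratios of 1.92, 5.49 and 5.68, for summit 2 of Mef2, with 4.04, 2.02 and 1.47, and for summit 7 of Mef2, with 1.44, 1.62 and 2.49. Each overlaps the interval of a neighbouring summit, and 1 or more of its nearest peaks ranked below 5049. In replicate 1, summits 1 and 2 of Mef2 were matched by the same peak (rank 1577), so that 4.04 is given for both. When the nearest peak itself had to be among the 5049 strongest, 14 of 23 were matched in all 3 replicates (60.9%), beside 62.0% of all IDR peaks, a count added after seeing the data.

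**Figure D4:**
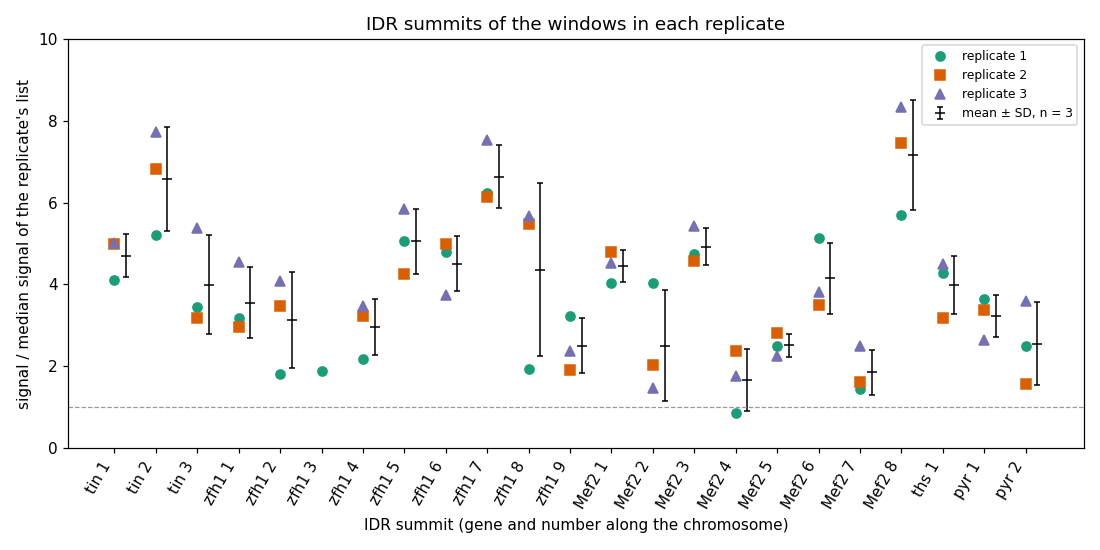
Ratio of the replicate peak that matches each of the 23 IDR summits to the median signal of that replicate's list (vertical axis), by gene and summit number (horizontal axis), with mean and SD where all 3 replicates matched. Summit 2 of tin, summit 7 of zfh1 and summit 8 of Mef2 are the highest, reaching 7.72, 7.52 and 8.34, and summit 3 of zfh1 has a match in replicate 1 alone.

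Introns and promoters held most of the summits. Introns held 13 of 23 (56.5%, exact binomial 95% interval 34.5 to 76.8%), beside 35.1% of all IDR summits, and promoters (up to 500 bp from such a start of a protein-coding gene) held 7 (30.4%, 13.2 to 52.9%), beside 42.6%. The remaining 3 lay between genes, 2 upstream of zfh1 and 1 beyond pyr. Promoters were assigned first, so a summit up to 500 bp from a start was not counted as exon or untranslated region. Outside promoters, none lay in a coding exon or untranslated region. The interval for introns reaches down to 34.5%, below the share of all IDR summits, so the shares are not separated at this number of summits. For 20 summits the nearest protein-coding start belonged to the member itself, and the other 3 were nearest to mod(mdg4), wts and Pal1. The median distance to the nearest protein-coding start was 1401 bp, with a range of 33 to 20828 bp, beside 856 bp for all IDR summits. The median signal was 539.7 beside 473, and the median GC content of the windows of 201 bp was 47.8% (36.8 to 56.7%) beside 45.3%. The 88 lower-ranked pooled peaks lay mostly in introns (42) and between genes (24), with 11 at promoters and 4 in coding exons.

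Among the motifs, E-boxes had about the share seen in all IDR windows. CANNTG was present in 16 of 23 windows (69.6%), beside 68.8% of all IDR windows of the same length. The Twist-type CACATG was present in 1 window, at zfh1 (4.35% beside 12.8%), and CATATG in 1, at the tin summit printed above (4.35% beside 6.69%). The Snail-type CAGGTG was in 3 windows, at zfh1 and ths (13.0% beside 6.63%), and the Tinman-type CAAGTG in 3, at zfh1 and pyr (13.0% beside 14.9%). The Zelda-type CAGGTA was in 3, at zfh1, Mef2 and pyr (13.0% beside 13.2%), and GGGAAA in 5 (21.7% beside 16.0%). The Dref-type TATCGATA and the Mef2 consensus were in none, beside 2.08% and 4.14%. GAGAG was in 12 (52.2%, exact binomial 95% interval 30.6 to 73.2%), beside 35.3%, with 7 matches in the window of summit 2 of zfh1 and 6 in that of summit 5 of Mef2, and with none at tin or pyr. The letters of the Twist-, Snail- and Tinman-type motifs match CANNTG, so these motifs are counted in both. A match describes the letters, not a bound site, and no difference of shares was tested.

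Other genes of mesoderm development and of the FGF receptor pathway carried IDR peaks at many of their promoters. Of 23 other mesoderm regulators, 13 had an IDR promoter summit (56.5%, exact binomial 95% interval 34.5 to 76.8%), beside 18.4% of protein-coding genes, and 22 an IDR summit in the window (95.7%), beside 53.9%. They had a median of 3 summits per window beside 1 over all protein-coding genes. The highest promoter signals were 1526 at srp, the GATA factor gene of blood cells and fat body, 1201 at Doc3 and 1053 at mid, which are T-box genes of the heart. The repressor gene sna, partner of twi in the early mesoderm, had 7 IDR summits in its window, with 625 at its promoter. Of this list, Hand, a basic helix-loop-helix gene of the heart, had no IDR summit in the window, and the single summit in the bap window was summit 3 of tin. Of 16 FGF receptor pathway genes, 9 had a promoter summit (56.3%, 29.9 to 80.2%, beside 18.4%) and 13 a summit in the window (81.3%, beside 53.9%). The highest were 1704 at aop, an ETS repressor gene, 1681 at sfl, a heparan sulfate enzyme gene, and 1139 at btl, the other FGF receptor gene. The adaptor gene stumps, which acts beneath htl, had a promoter signal of 797, whereas htl had none, and bnl, the ligand gene of btl, had 604. The named genes sna, Hand, bap, stumps and bnl were chosen after their values were seen. Both lists were chosen with earlier results of these data known, and neighbouring genes can share peaks. Window length and number of start sites were not matched in these comparisons. The windows of the listed genes spanned 21147 to 151288 bp, against a median of 22164.5 bp over all protein-coding genes.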

How the data were processed

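The authors deposited 5 peak lists on dm6, 1 for each replicate, 1 for the pool and the optimal IDR list, per the accompanying text files. Each peak has a deposited signal value of unstated scale, a deposited −log10 q value, used here only to describe lists, and a summit. The replicate lists derive from each alignment and 1 shared control, the IDR list from the other lists. No source used here gives the caller, aligner or filters, and the alignments and signal tracks were not analysed here. Fragments were 200 to 800 bp, per the labels.

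Gene models came from Ensembl release 115 without transposons, and sequence from the RefSeq copy of Release 6. Summits were counted 1-based. A summit counted as matched in a replicate if any of its 5049 strongest peaks overlapped by 50% of either peak, and its level there was that of the overlapping peak of the complete list with the nearest summit. Every result is a count or a level beside its background, with no test. Exact Clopper-Pearson 95% intervals assume independent peaks or genes and cover counting error only. Matching and motif search were tested on simulated data (Python 3.11.15, scipy 1.17.1, pandas 2.3.3). The text names all 7 members, the genes nearest their IDR summits and the 3 highest promoter signals of each other list. It also names sna, Hand, bap, stumps and bnl, chosen after their values were seen, and Fatp2, Pdrg1 and asRNA:CR45189, which lie at or near described peaks. Members and lists were chosen with earlier results of these data known.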

Additional observations from a re-analysis of the deposited data

How the results depend on the processing

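With the gene models alone the windows held 15 IDR summits in place of 23, and 5 genes still had one; with a reach of 5 kb, 20 kb, the stronger 2524 IDR peaks, or a replicate left out and a match required in both others (18 to 19), the count stayed within 1.5 times. Without a replicate, 5 genes kept a summit in the window (5 to 5), 2 kept a promoter summit in place of 3 (2 to 2, zfh1 lost), and 18 to 19 summits were matched in both others. In the pooled list 7 genes had a promoter summit. With an overlap of 50% of both peaks 7 summits were matched in all 3 replicates in place of 17; the criterion asks more of each pair. Windows of 50 bp to either side held CACATG at 0, CAGGTA at 0, GAGAG at 6 and GGGAAA at 1 of 23 summits, and windows of 150 bp held CACATG at 2, CAGGTG at 6, CAGGTA at 6, CAAGTG at 5 and GGGAAA at 8; they search fewer and more bases. The rank of the strongest peak differed from the pooled rank by more than the SD of the 3 replicates in replicate 1 at twi (3412), tin (980), zfh1 (666), Mef2 (819) and pyr (1888), and in replicate 2 at twi (4346), htl (5120) and ths (2464); the cause was not tested. Counting intervals of distinct coordinates, some of which overlap, gave 21, and counting summits nearest to a member's own start gave 20. Requiring the nearest peak itself to be among the strongest gave 14 matched summits. All 3 counts were chosen after seeing the data. No paired analysis was possible because there is 1 group. Read depth is unknown, so weak peaks that are not listed at twi, htl or ths may be below what these lists can show.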

Other observations

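Several of the strong sites were listed as pairs of summits. Summits 2 and 3 of tin lay 203 bp apart, summits 7 and 8 of zfh1 201 bp, summits 1 and 2 of Mef2 200 bp and summits 6 and 7 of Mef2 199 bp. In the whole IDR list no neighbouring summits lay closer than 199 bp, and 634 of 5043 neighbouring pairs lay 210 bp apart or less. The 4 pairs lie close to this smallest spacing, and whether each pair is 1 site or 2 was not tested. The 23 summits lay in 21 intervals of distinct coordinates. Among these, the intervals of Mef2 summits 1 and 2 overlap, as do those of Mef2 summits 6 and 7, so there are fewer separate regions than 21.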
